A study of Mus musculus with 12 samples.

Results

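The 10 genes described here drive, time or mark cell division. They are the cyclins *Ccna2* and *Ccnb2* with their kinase *Cdk1*, the mitotic kinases *Aurka*, *Aurkb* and *Plk1*, the spindle checkpoint genes *Bub1* and *Mad2l1*, the topoisomerase *Top2a*, and *Mki67*, which encodes the proliferation marker Ki-67. They were taken by name, as probe sets annotated with that 1 symbol. All 10 were found among the 18820 genes measured, and where a gene had several probe sets the brightest was used. The study hybridized total RNA of whole hind limb skeletal muscle and whole heart to 12 arrays (Affymetrix Mouse Gene 1.1 ST). Knockout (*Tk2*-/-) and wild-type (*Tk2*+/+) pups gave 3 arrays each for skeletal muscle and 3 arrays each for heart, and values are linear signal intensities, called units here. All mice were C57BL/6 and 11 days-old. *Tk2* encodes thymidine kinase 2, which salvages pyrimidine deoxyribonucleosides in mitochondria, and the methods describe knockout and wild-type pups born to heterozygous parents. The knockout is of the whole animal rather than of 1 cell type, and no other allele or treatment was named for any group.

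A dividing cell makes these transcripts mainly between late S phase and mitosis and destroys much of the protein afterwards. Cdk1 bound to cyclin A2 and then to B-type cyclins starts mitosis, Aurora and Polo-like kinases build the spindle and prepare division of the cell body, and the checkpoint proteins hold separation of the chromosomes until every kinetochore is attached. In mice, heart and skeletal muscle still grow in the days after birth. In skeletal muscle much of the division then under way is that of progenitors, fibroblasts, endothelial cells and blood cells, since mature muscle fibres do not divide. For heart, the paper cites studies in which DNA replication of most cardiac cells ends gradually in the first weeks of life. It calls cardiomyocyte proliferation after birth unclear.

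All 10 genes fell in *Tk2*-/- skeletal muscle and all 10 fell in *Tk2*-/- heart. Over all genes, 10.9% passed the same test (limma, Benjamini-Hochberg adjusted p under 0.05) as lower in skeletal muscle, 49.04% did in heart, and 9.42% did in both tissues. The knockout mean lay between 11.1% and 39.99% of the wild-type mean in skeletal muscle (median of the 10 genes 20.8%) and between 3.03% and 29.9% in heart (median 8.01%). For each of the 10 genes every knockout array was below every wild-type array of the same tissue, which held for 18.8% of all genes in skeletal muscle and 53.3% in heart. Whole tissue was measured, so fewer dividing cells and less transcript per cell cannot be told apart.

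The arrays set limits on these values. Mean signal over all probe sets was 146.7 to 168.4 on *Tk2*-/- heart arrays and 227.4 to 242.6 on *Tk2*+/+ heart arrays, against 224.9 to 245.9 and 201.8 to 252.4 on *Tk2*-/- and *Tk2*+/+ skeletal muscle arrays. Among genes with a mean log2(signal + 16) of at least 6 the median log2 fold change was accordingly -0.62 in heart and 0.03 in skeletal muscle. Over all genes these medians were -0.28 in heart and -0.02 in skeletal muscle. After quantile normalization within each tissue those medians became 0.01 and 0.01, the share of genes called lower became 15.96% in heart and 14.5% in skeletal muscle, and all 10 genes were still lower in both tissues, with adjusted p of at most 0.00650 in heart and 0.00707 in skeletal muscle. *Tk2* itself had 64.7, 44.1 and 48.7 units in *Tk2*-/- skeletal muscle against 62.9, 68.5 and 63.1 in *Tk2*+/+ skeletal muscle (log2 fold change -0.25, adjusted p = 0.209), and 30.1, 46.2 and 31.7 units in *Tk2*-/- heart against 70.2, 73.6 and 81.8 in *Tk2*+/+ heart (-0.82, adjusted p = 7.62e-05). Nothing read here places its probes relative to the deleted part, and its signal is therefore given without a reading. *Xist*, the transcript of the inactive X chromosome in females, was above 100 units in skeletal muscle on 2 of 3 *Tk2*-/- and 1 of 3 *Tk2*+/+ arrays, but in heart on 3 of 3 *Tk2*-/- and 2 of 3 *Tk2*+/+ arrays, and at 1.6 units or less on the others. The design names 3 pups of each genotype, and these counts go against skeletal muscle and heart having come from the same 3. Skeletal fibre genes (9 of 9 measured, such as *Myh4*) summed to 52115 to 55760 units in *Tk2*-/- and 45502 to 61316 in *Tk2*+/+ skeletal muscle. In heart they summed to 4060 to 4759 units in *Tk2*-/- and 6216 to 6366 in *Tk2*+/+ mice. Cardiomyocyte genes (7 of 8 measured) summed to 27730 to 28471 units in *Tk2*-/- and 29786 to 37209 in *Tk2*+/+ heart. In skeletal muscle these summed to 5310 to 6032 units in *Tk2*-/- and 3984 to 5160 in *Tk2*+/+ mice. By these sums each tissue carried the markers of its label. Of single genes, *Ckm* (5877 units in *Tk2*+/+ heart) and *Actn2* (4229 units in *Tk2*+/+ skeletal muscle) were bright in both.

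Genes of this kind are known to share promoter elements. The CHR element TTTGAA is bound by the MuvB complex, which in non-dividing cells forms part of the DREAM repressor, CCAAT boxes are bound by the factor NF-Y, and E2F sites (searched as TTGGCGC and TTCCCGC) by E2F proteins. The RefSeq promoter table (GRCm38.p6) held 8 of the 10 genes, all but *Ccna2* and *Aurkb*. Windows reaching 250 bases before to 50 bases after the start were searched on both strands. No match of one motif overlapped a match of another. The 100 bases before the start are given here for the genes with large falls and, last, for the pair with the smallest falls in skeletal muscle, since these are the sequences that genes which moved together did and did not share. They run 5′ to 3′ in the direction of the gene, and capitals mark CHR (TTTGAA, or TTCAAA on the opposite strand), CCAAT (or ATTGG on the opposite strand) and the E2F site TTGGCGC.
*Ccnb2* (chr9:70421555-70421654, minus strand): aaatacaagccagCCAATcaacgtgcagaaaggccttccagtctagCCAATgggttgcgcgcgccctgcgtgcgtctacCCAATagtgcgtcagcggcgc
*Cdk1* (chr10:69352913-69353012, minus strand): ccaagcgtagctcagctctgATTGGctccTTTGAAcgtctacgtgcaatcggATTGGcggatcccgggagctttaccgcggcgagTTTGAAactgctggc
*Top2a* (chr11:99024190-99024289, minus strand): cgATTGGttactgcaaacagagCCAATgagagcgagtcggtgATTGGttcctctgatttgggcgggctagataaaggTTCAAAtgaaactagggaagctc
*Mki67* (chr7:135716380-135716479, minus strand): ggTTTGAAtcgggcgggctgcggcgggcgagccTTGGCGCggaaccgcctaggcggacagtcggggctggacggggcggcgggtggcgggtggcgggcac
*Aurka* (chr2:172370571-172370670, minus strand): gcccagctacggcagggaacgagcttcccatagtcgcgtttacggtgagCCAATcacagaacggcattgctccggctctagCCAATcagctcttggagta
*Mad2l1* (chr6:66535121-66535220, plus strand): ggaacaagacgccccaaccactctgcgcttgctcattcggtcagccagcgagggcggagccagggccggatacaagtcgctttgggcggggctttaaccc
*Ccnb2* carried CCAAT boxes whose first bases lay at -87, -54 and -21 from the start, an even spacing, and its CHR matches fell outside the stretch shown. *Cdk1* carried CHR matches at -71 and -15 beside CCAAT boxes on the opposite strand, and *Top2a* had a CHR on the opposite strand at -23 with 6 CCAAT boxes over its whole window. In *Aurka* the CHR lay at 33 bases past the start. *Mad2l1* had no match to any of these motifs in its window. Of the 8 windows, 6 held a CHR, against 17.9% of all 32851 windows in the table, 7 held a CCAAT box, against 37.4%, and 6 held both, against 6.95%. Either E2F site was found in 2 of the 8 (*Cdk1* and *Mki67*), against 6.81% of all windows. These are matches of letters and not measured binding.

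**Figure D1:**
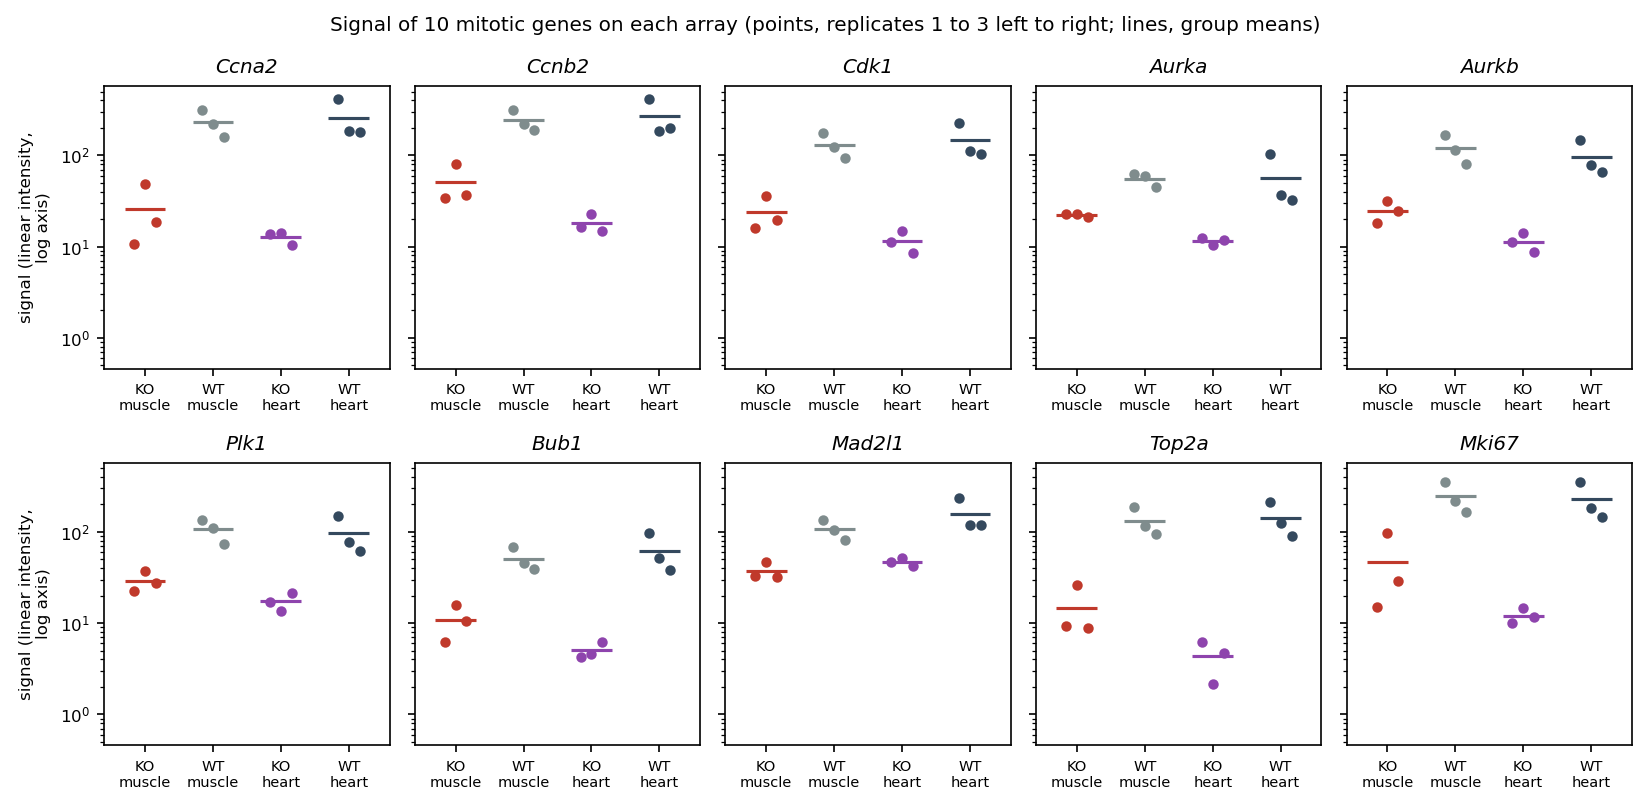
Signal of each gene (linear intensity on a log axis) on the 12 arrays, with *Tk2*-/- (KO) left of *Tk2*+/+ (WT) in each tissue. Points are arrays and lines are group means (n = 3 each). In every panel the 3 knockout arrays lie below the 3 wild-type arrays of the same tissue.

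Among the cyclins and their kinase, *Ccna2*, whose product serves in S phase and at entry into mitosis, had 10.6, 49.1 and 18.7 units in *Tk2*-/- skeletal muscle, against 312.2, 223.5 and 159.0 units in *Tk2*+/+ skeletal muscle. In heart it had 13.8, 14.0 and 10.5 units in *Tk2*-/- mice, against 413.2, 186.6 and 178.3 units in *Tk2*+/+ mice. The groups were far apart in both tissues, and the second knockout skeletal muscle array was the highest of its group. *Ccna2* had the largest fall of the 10 genes on the log2(signal + 16) scale, with fold changes of -2.61 in skeletal muscle (SE 0.32, adjusted p = 3.41e-05) and -3.16 in heart (SE 0.32, adjusted p = 2.5e-06). It ranked 8 from the lowest fold change of all 18820 genes in skeletal muscle and 6 in heart. *Ccnb2*, a B-type cyclin that activates Cdk1 in mitosis, had 33.9, 80.9 and 37.1 units in *Tk2*-/- skeletal muscle, against 317.1, 222.2 and 187.9 in *Tk2*+/+ skeletal muscle. In heart its signals were 16.4, 22.9 and 14.9 units in *Tk2*-/- mice, against 416.6, 184.7 and 200.1 in *Tk2*+/+ mice. The remaining signal thus stood at 20.9% of wild type in skeletal muscle and 6.75% in heart, with log2 fold changes of -1.99 (adjusted p = 0.000117) and -2.97 (adjusted p = 1.66e-06). *Cdk1*, the kinase that both cyclins bind, had 15.96, 35.9 and 19.5 units in *Tk2*-/- skeletal muscle, against 174.9, 122.2 and 93.9 in *Tk2*+/+ skeletal muscle. In heart it had 11.3, 14.8 and 8.6 units in *Tk2*-/- mice, against 225.4, 111.8 and 102.6 in *Tk2*+/+ mice. The log2 fold change of the kinase was -1.87 in skeletal muscle (95% confidence interval -2.41 to -1.34) and -2.49 in heart (-3.03 to -1.95).

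The mitotic kinases fell by less than *Ccna2* did, as values and without a test between genes. *Aurka*, the Aurora kinase of the spindle poles, had nearly equal signals of 22.7, 22.7 and 21.2 units in *Tk2*-/- skeletal muscle, against 62.7, 59.3 and 44.6 in *Tk2*+/+ skeletal muscle. In heart it had 12.4, 10.5 and 11.7 units in *Tk2*-/- mice, against 102.4, 36.4 and 32.8 in *Tk2*+/+ mice, where the first array stood well above the other two. On the log2 scale of the main test its falls were the smallest of the 10 genes. The log2 fold changes of *Aurka* were -0.90 in skeletal muscle (SE 0.24, adjusted p = 0.0120) and -1.29 in heart (SE 0.24, adjusted p = 0.000257). In heart the ranking depended on the scale. *Mad2l1* kept more of its wild-type mean there (29.9%, against 20.2% for *Aurka*). It also fell less after quantile normalization within the tissue (-0.84, against -1.09). After median centring *Aurka* again fell less (-0.84, against -0.95). *Aurkb*, the Aurora kinase of the chromosomal passenger complex at centromeres and the midzone, averaged 24.7 ± 6.79 units in *Tk2*-/- and 120 ± 42.9 units in *Tk2*+/+ skeletal muscle, and 11.3 ± 2.61 units in *Tk2*-/- and 97.1 ± 44.0 units in *Tk2*+/+ heart (SD, n = 3 each). Its knockout arrays ran up to 31.5 units in skeletal muscle and 14.0 in heart, while no wild-type array was under 65.3 units. The log2 fold change was -1.71 in skeletal muscle and -1.99 in heart, with adjusted p of 0.000107 and 8.55e-06. *Plk1*, the Polo-like kinase needed for centrosome maturation and mitotic exit, had 22.4, 37.2 and 27.3 units in *Tk2*-/- skeletal muscle, against 136.6, 109.6 and 72.8 in *Tk2*+/+ skeletal muscle. In heart the signals were 17.1, 13.8 and 21.5 units in *Tk2*-/- mice, against 150.5, 77.6 and 62.2 in *Tk2*+/+ mice. *Plk1* thus fell in both tissues, with log2 fold changes of -1.42 in skeletal muscle and -1.68 in heart, and adjusted p of 0.000499 and 3.15e-05.

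Both checkpoint genes followed. *Bub1*, the kinetochore kinase that recruits other checkpoint proteins, had 6.3, 15.9 and 10.5 units in *Tk2*-/- skeletal muscle, against 68.0, 45.8 and 38.8 in *Tk2*+/+ skeletal muscle. In heart it had 4.2, 4.6 and 6.2 units in *Tk2*-/- mice, against 96.2, 51.5 and 38.4 in *Tk2*+/+ mice. The knockout signals lay under the 16 units added before taking the logarithm, which pulls log2 fold changes toward 0. These were -1.31 in skeletal muscle (adjusted p = 0.000485) and -1.82 in heart (adjusted p = 8.38e-06). The knockout means were 21.4% and 8.12% of the wild-type means, at signals for which no detection call was used. Knockout heart arrays were dimmer as a whole, and after quantile normalization within the tissue the heart fold change was -1.63 (adjusted p = 7.74e-05). *Mad2l1* encodes MAD2, the protein that binds Cdc20 and so keeps the anaphase promoting complex inactive. It had 32.9, 46.9 and 31.9 units in *Tk2*-/- skeletal muscle, against 136.4, 105.4 and 81.1 in *Tk2*+/+ skeletal muscle, and 46.6, 52.4 and 42.6 units in *Tk2*-/- heart, against 237.0, 118.7 and 117.6 in *Tk2*+/+ heart. It kept the largest share of its wild-type signal in heart (29.9%) and the second largest in skeletal muscle (34.6%), and its log2 fold change in heart was -1.39 (adjusted p = 6.1e-05) on the deposited values and -0.84 (adjusted p = 0.00650) after quantile normalization within the tissue. In skeletal muscle it was -1.20 (adjusted p = 0.000846). Its second, dimmer probe set averaged 14.4 units in *Tk2*-/- and 36.2 units in *Tk2*+/+ skeletal muscle, and 18.8 units in *Tk2*-/- and 51.4 units in *Tk2*+/+ heart.

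*Top2a*, the topoisomerase that untangles replicated chromosomes, had several probe sets that differed in how far they fell. On the brightest it had 6.2, 2.1 and 4.8 units in *Tk2*-/- heart, against 215.2, 126.6 and 89.6 in *Tk2*+/+ heart, and 9.4, 25.9 and 8.8 units in *Tk2*-/- skeletal muscle, against 186.8, 117.2 and 94.8 in *Tk2*+/+ skeletal muscle. These means were 3.03% and 11.1% of wild type, at knockout signals for which no detection call was used, and the log2 fold changes were -2.90 in heart (adjusted p = 1.44e-06) and -2.27 in skeletal muscle (adjusted p = 2.45e-05). Its other probe sets were dimmer. One kept 33.6% of the wild-type mean in heart (8.69 units in *Tk2*-/- and 25.9 units in *Tk2*+/+ mice) and 46.9% in skeletal muscle (12.7 units in *Tk2*-/- and 27.0 units in *Tk2*+/+ mice). The other kept 4.73% in heart (0.89 units in *Tk2*-/- and 18.9 units in *Tk2*+/+ mice) and 4.28% in skeletal muscle (0.66 units in *Tk2*-/- and 15.4 units in *Tk2*+/+ mice). With the mean of the probe sets the log2 fold change of *Top2a* was -1.55 in heart and -1.25 in skeletal muscle, past the threshold in both. *Mki67*, whose protein coats mitotic chromosomes, had 15.1, 96.4 and 29.1 units in *Tk2*-/- skeletal muscle, against 348.3, 218.1 and 166.8 in *Tk2*+/+ skeletal muscle. In heart it had 10, 14.6 and 11.6 units in *Tk2*-/- mice, against 355.0, 183.4 and 147.0 in *Tk2*+/+ mice. Knockout skeletal muscle had its widest spread here, a coefficient of variation of 92.7%, and the log2 fold change of *Mki67* was -2.21 (SE 0.38, adjusted p = 0.000642) there and -3.03 (SE 0.38, adjusted p = 1.2e-05) in heart.

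**Figure D2:**
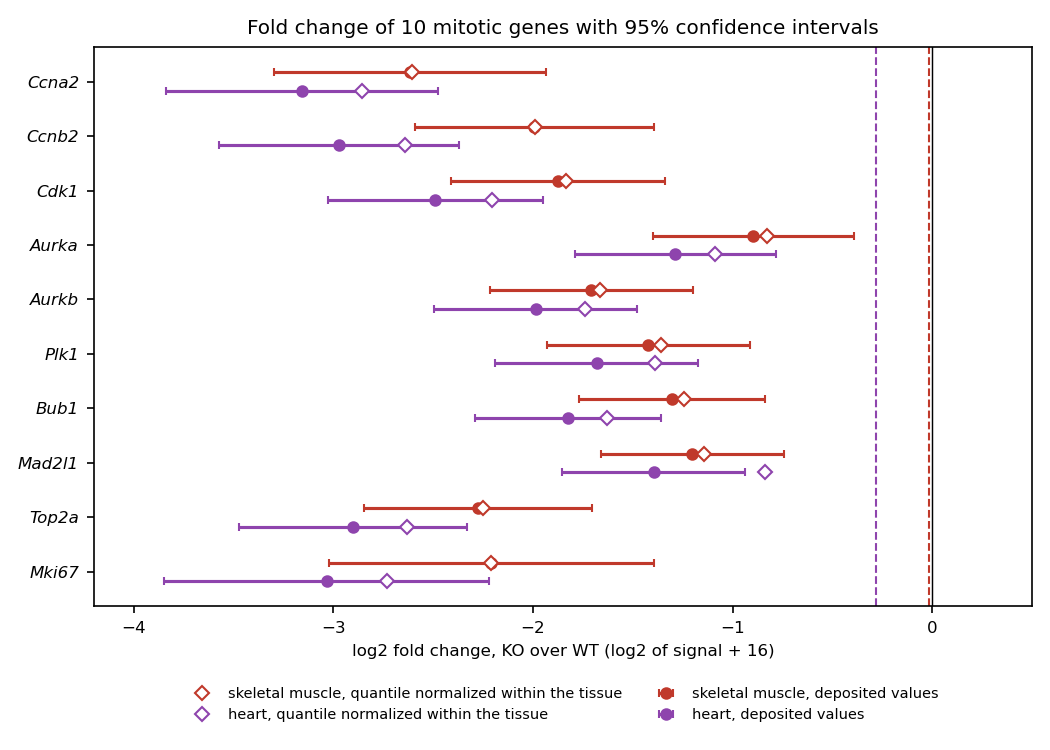
Log2 fold change of each gene, *Tk2*-/- (KO) over *Tk2*+/+ (WT), in skeletal muscle and heart with 95% confidence intervals (limma, 3 arrays a group). Open diamonds are the values after quantile normalization within each tissue, and dashed lines are the medians of all genes on the deposited values, -0.02 in skeletal muscle and -0.28 in heart. Every interval lies below 0, from -3.85 at the lowest bound to -0.39 at the highest.

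Whether the fall differed between the tissues was tested as the skeletal muscle fold change minus the heart fold change. The difference was above 0 for all 10 genes, between 0.19 for *Mad2l1* and 0.98 for *Ccnb2*, beside a median of 0.30 over all genes. None of the 10 passed the threshold, whereas 42.7% of all genes did in either direction, and 1 gene had an unadjusted p under 0.05. *Ccnb2* was nearest, at an adjusted p of 0.0603 with a 95% confidence interval of 0.13 to 1.83, and over the 10 genes the intervals reached from -0.46 to 1.98, and all but that of *Ccnb2* included 0. *Ccnb2* passed in 8 of 23 alternatives, 5 of which left out a single array: *Tk2*-/- skeletal muscle replicate 1 or 3, *Tk2*+/+ skeletal muscle replicate 1, or *Tk2*+/+ heart replicate 2 or 3 (adjusted p from 0.0287 to 0.163 over the 12 arrays left out in turn). After quantile normalization within each tissue the differences lay between -0.31 and 0.65 and again none passed, against 10.2% of all genes, with adjusted p of 0.358 to 0.968.

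No difference between the wild-type tissues passed the test. *Tk2*+/+ skeletal muscle minus *Tk2*+/+ heart ranged from -0.45 for *Mad2l1* to 0.29 for *Aurkb* on the log2 scale, with adjusted p of 0.0957 to 0.849 and none under 0.05 unadjusted, whereas 49.1% of all genes passed. The arrays of the tissues overlapped for all 10 genes, and 55.8% of all genes did not overlap. The intervals ran from -0.91 to 0.94. In knockout pups *Tk2*-/- skeletal muscle was above *Tk2*-/- heart for 9 of 10 genes, and 3 passed as higher, against 59.5% of all genes. These were *Ccnb2* (0.91, adjusted p = 0.0113), *Mki67* (0.95, adjusted p = 0.0408) and *Aurkb* (0.57, adjusted p = 0.0491), beside a median of 0.36 over all genes on arrays of which the heart ones were dimmer. With dim genes left out that median was 0.57. Without the second *Tk2*-/- skeletal muscle array none of the 10 passed, without the first *Tk2*+/+ heart array, which changes only the shared spread, 6 did, and after median centring only *Mad2l1* did, as lower in skeletal muscle.

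Ordered by mean signal, 6 genes ran from wild-type heart through wild-type skeletal muscle and knockout skeletal muscle down to knockout heart. *Aurkb*, *Plk1* and *Mki67* had the wild-type tissues the other way round, neighbours whose difference did not pass the test for any gene. *Mad2l1* alone had its lowest mean in knockout skeletal muscle, 37.2 ± 8.36 units, beside 47.2 ± 4.92 units in knockout heart (SD, n = 3 each), neighbours that did not pass the test either (adjusted p = 0.301).

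The genes moved together within groups as well. The first *Tk2*+/+ heart array was the highest of its group for all 10 genes, at 1.99 to 2.96 times the mean of the other two arrays, and the third was the lowest for 9. The first *Tk2*+/+ skeletal muscle array was the highest for all 10, at 1.21 to 1.81 times, and the third was the lowest for all 10. In *Tk2*-/- skeletal muscle the second array was the highest for all 10, from 1.03 times for *Aurka* to 4.36 times for *Mki67*. No array was highest or lowest throughout in *Tk2*-/- heart. In skeletal muscle, *Tk2*-/- replicate 2 was the only array of its group with *Xist* under 100 units (1.6). *Tk2*+/+ replicate 3, lowest for all 10, was the only array of its group above 100 (1193.2). In *Tk2*+/+ heart, replicates 1 (highest, 1499.6) and 3 (lowest for 9, 1549.8) both had *Xist*. A part of sex in these ranks was not tested. With sex as a covariate all 10 genes still passed as lower in skeletal muscle, from -2.47 for *Ccna2* to -0.91 for *Aurka*. At the median over all genes, the arrays that were highest for the 10 were hardly brighter. Against the mean of the other arrays of the group, the median log2 shift of all genes was 0.05, 0.03 and 0.00 for these 3 arrays. That of the 10 genes was 0.97, 0.61 and 0.51. Shifts up and down cancel in a median, so it does not show whether other genes also shifted. Genes on 1 array share their RNA sample, so the 10 genes are not 10 separate observations of it. Leaving out any one of the 12 arrays kept all 10 genes lower and past the threshold in both tissues.

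**Figure D3:**
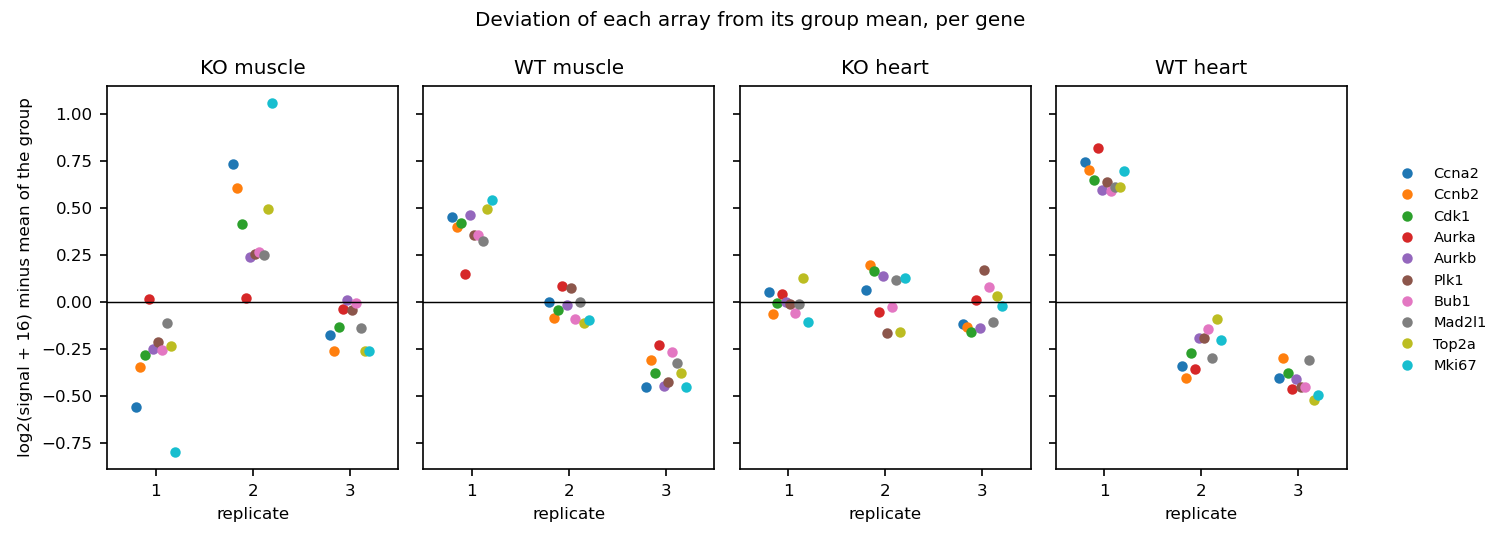
Deviation of each array from its group mean, on the log2(signal + 16) scale, for the 10 genes (colours) in *Tk2*-/- (KO) and *Tk2*+/+ (WT) skeletal muscle and heart, 3 replicates each. In wild-type heart the first array lies 0.59 to 0.82 above the group mean for every gene, and in knockout heart no deviation exceeds 0.20.

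Markers of other cell types moved beside these genes, and their part in the result was not tested. The counts that follow stand beside shares of all genes. Those called lower made up 10.9% in skeletal muscle and 49.04% in heart, or 14.5% and 15.96% after quantile normalization, and 11.6% of genes passed as higher in skeletal muscle. Fibroblast markers (7 of 7 measured) summed to 7419 to 9080 units in *Tk2*-/- and 13230 to 15096 in *Tk2*+/+ skeletal muscle, and to 4988 to 5567 units in *Tk2*-/- and 9692 to 12459 in *Tk2*+/+ heart. In skeletal muscle 5 of the 7 fell, among them *Col1a1* and *Postn*, while *Pdgfra*, a receptor that marks the cells themselves, was higher (0.39, adjusted p = 0.0170). In heart all 7 were lower, or 5 lower and 1 higher after quantile normalization. Of 7 myogenic progenitor markers, *Pax7* of satellite cells (-0.43), *Myod1* (-1.17) and *Myog* of differentiating myoblasts (-1.66) fell in skeletal muscle and *Sdc4* rose, with sums of 954.3 to 1234.4 units in *Tk2*-/- and 1048.7 to 1531.0 in *Tk2*+/+ skeletal muscle. In heart the same markers summed to 178.4 to 223.5 units in *Tk2*-/- and 160.6 to 223.9 in *Tk2*+/+ mice, and group means of *Myod1* and *Myog* there lay between 4.37 and 6.05 units. Leucocyte markers (7 of 7 measured) summed to 1101 to 1264 units in *Tk2*-/- and 934.4 to 1544 in *Tk2*+/+ skeletal muscle, and to 550.8 to 655.8 units in *Tk2*-/- and 1500 to 1879 in *Tk2*+/+ heart. In skeletal muscle 1 of them, *Cd68*, rose, and in heart 7 fell, or 6 after quantile normalization. Endothelial markers (7 of 7 measured) summed to 4772 to 5338 units in *Tk2*-/- and 5358 to 6633 in *Tk2*+/+ skeletal muscle, and to 3857 to 4970 units in *Tk2*-/- and 7474 to 8905 in *Tk2*+/+ heart. In skeletal muscle 1 of them, *Kdr*, fell, or 3 after quantile normalization, and in heart 7 fell, or 4 after it. Erythroid markers (4 of 8 measured) summed to 368.4 to 805.6 units in *Tk2*-/- and 233.3 to 494.4 in *Tk2*+/+ skeletal muscle, and to 458.2 to 766.5 units in *Tk2*-/- and 1166 to 1940 in *Tk2*+/+ heart, where 2 fell, or 1 after quantile normalization. The second *Tk2*-/- skeletal muscle array, highest for all 10 mitotic genes, had the highest erythroid sum of its group, 805.6 units. Its fibroblast (8506), endothelial (5297), leucocyte (1139) and myogenic (979.3) sums lay between those of the other arrays of the group. The first *Tk2*+/+ skeletal muscle array had the highest myogenic (1531.0), leucocyte (1544) and fibroblast (15096) sums of its group. It had the lowest endothelial (5358), erythroid (233.3) and skeletal fibre (45502) sums. The first *Tk2*+/+ heart array had the highest fibroblast (12459), endothelial (8905) and leucocyte (1879) sums of its group and the lowest cardiomyocyte sum (29786) and erythroid sum (1166). Of the cardiomyocyte genes, *Nppa* (3091 ± 2529 units) and *Myl7* (1078 ± 1383 units) varied most in that group (SD, n = 3). The others had SDs of 50.5 to 368 units, so the order of the cardiomyocyte sums rests largely on *Nppa* and *Myl7*.

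Most measured partners and regulators of the mitotic kinases fell too. Of 28 listed symbols 24 were found among the measured genes, and *Ccnb1*, *Pkmyt1*, *Gsg2* and *Nusap1* were not. *Gsg2* is an earlier symbol of *Haspin*, which is also listed and was found (-0.22 in skeletal muscle and -0.16 in heart, neither past the threshold). In all, 17 were lower and none higher in skeletal muscle (median log2 fold change -0.74), and 23 were lower and none higher in heart (median -1.07), or 18 and 19 after quantile normalization. Of all genes, 10.9% were lower in skeletal muscle and 49.04% in heart, or 14.5% and 15.96% after quantile normalization. *Cks2*, a small subunit of Cdk complexes, averaged 42.3 ± 11.1 units in *Tk2*-/- and 164 ± 53.8 units in *Tk2*+/+ skeletal muscle, and 17.5 ± 9.43 units in *Tk2*-/- and 191 ± 113 units in *Tk2*+/+ heart, log2 fold changes of -1.60 (adjusted p = 0.00118) and -2.54 (adjusted p = 7.47e-06). *Prc1*, which bundles microtubules of the spindle midzone, was at -1.51 in skeletal muscle (adjusted p = 0.000275) and -2.28 in heart (adjusted p = 2.87e-06). *Ect2*, the exchange factor that activates RhoA at the division plane, was at -1.49 in skeletal muscle and -1.54 in heart, its partner *Racgap1* at -1.25 and -1.61, and the scaffold *Anln* at -1.24 and -1.67. The spindle protein *Ckap2* was at -1.01 in skeletal muscle and -1.74 in heart, and all of these passed the threshold in both tissues.

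Among the other genes of the spindle checkpoint and of the anaphase promoting complex (APC/C), the ubiquitin ligase that ends mitosis, the call depended on tissue and scaling. Of 26 listed genes 23 were measured. In skeletal muscle 3 fell and none rose (median -0.12): *Cdc20*, the activator of the APC/C in mitosis (-0.92, adjusted p = 0.00532), *Kntc1* of the kinetochore complex that recruits MAD1 and MAD2 (-0.68, adjusted p = 0.00486), and the checkpoint kinase *Ttk* (-0.54, adjusted p = 0.00409). The 3 of 23 stand near the 10.9% of all genes that were lower. In heart 21 were lower (median -0.77), beside 49.04% of all genes, with *Cdc20* at -1.19, the APC/C subunits *Anapc1* at -0.99 and *Cdc16* at -0.98, and the checkpoint kinase *Bub1b* at -0.97. After quantile normalization 5 were lower and 2 higher in skeletal muscle, and 12 lower and 3 higher in heart, beside 14.5% and 15.96% of all genes lower, where *Anapc1* and *Cdc16* were at -0.29 each.

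Of 13 close relatives (paralogs) of the 10 genes 12 were measured. In skeletal muscle 1 fell, beside 10.9% of all genes, and none rose: *Plk4*, the kinase of centriole duplication, with 38.5 ± 6.20 units in *Tk2*-/- and 87.8 ± 20.9 units in *Tk2*+/+ mice (SD, n = 3 each, adjusted p = 0.000836). *Top2b*, the topoisomerase that non-dividing cells also express, averaged 318 ± 17.7 units in *Tk2*-/- and 280 ± 16.2 units in *Tk2*+/+ skeletal muscle (0.17, adjusted p = 0.292). *Cdk2*, the kinase of S phase entry, was at -0.27 (adjusted p = 0.162), *Bub1b* at -0.41 (adjusted p = 0.154), *Plk2* at -0.35 and *Plk3* at -0.19. *Ccna1* and *Ccnb3*, cyclins of germ cells, *Cdk3*, *Aurkc*, *Plk5* and *Mad2l2* lay between -0.09 and 0.08. In heart 6 fell, a share near the 49.04% of all genes, *Plk4* (-1.20), *Plk3* (-0.99), *Bub1b* (-0.97), *Plk2* (-0.94), *Top2b* (-0.69) and *Cdk2* (-0.58). After quantile normalization *Plk4* (-0.76), *Bub1b* (-0.74) and *Plk3* (-0.65) were still lower in heart, beside 15.96% of all genes, *Aurkc* (0.63) and *Mad2l2* (0.37) were higher, and *Top2b* was at 0.01. The median fold change of the 12 paralogs was -0.08 in skeletal muscle and -0.39 in heart, that of the 10 genes -1.79 and -2.24, and that of all genes -0.02 and -0.28.

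**Figure D4:**
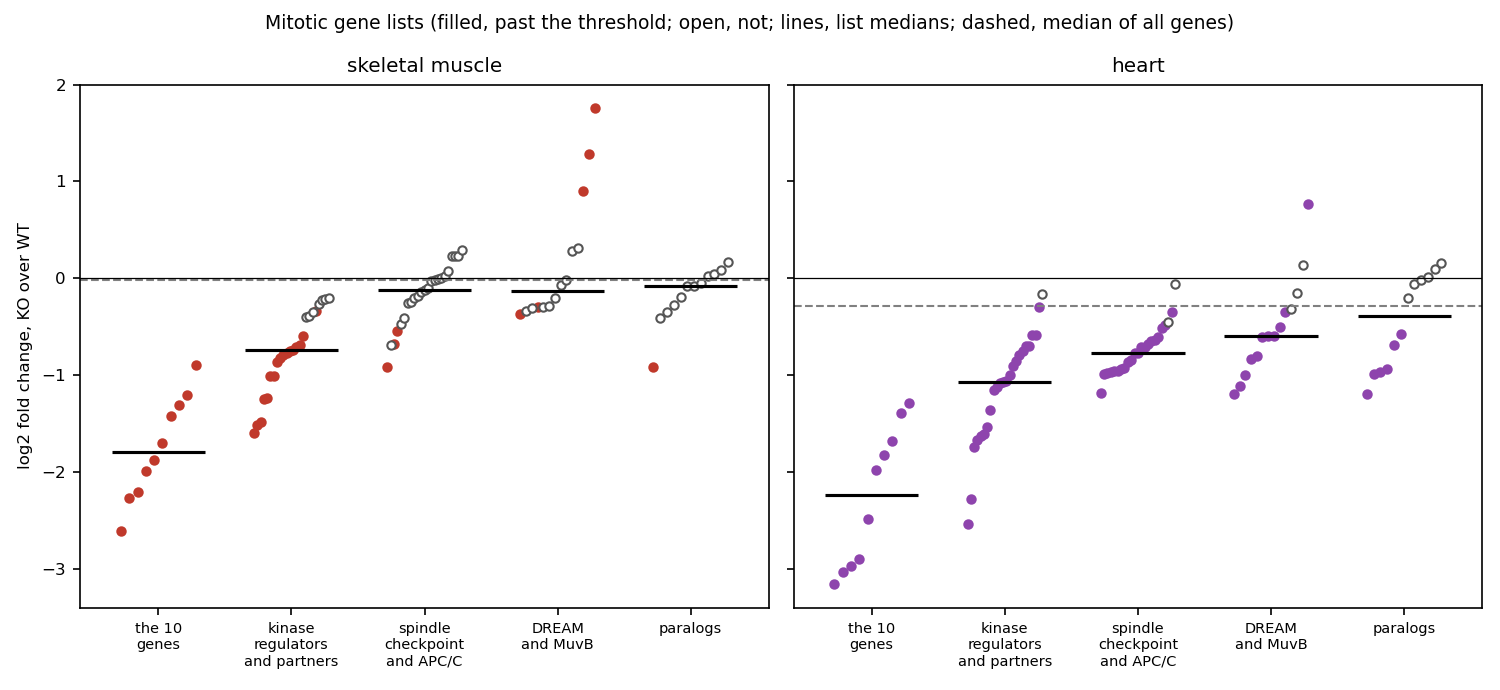
Log2 fold change, *Tk2*-/- (KO) over *Tk2*+/+ (WT), of the 10 genes and of the members of 4 lists of related genes in skeletal muscle and heart. Each point is a gene, filled where it passed the threshold, and lines are medians; the kinase regulators and partners have medians of -0.74 and -1.07, the paralogs of -0.08 and -0.39.

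Outside these lists, genes were sought whose values over the 12 arrays ran closest to the mean profile of the 10. The search covered the 6838 genes with a mean log2 value of at least 7.0. The 10 genes themselves lay below that cut, so other genes as dim as they are were not searched. Closeness was the root mean square difference of log2 values centred per gene. The closest were the histone genes *H2ac15* (0.26) and *H2bc3* (0.26), the growth factor gene *Mdk* (0.27), *Tmsb10* (0.31), whose product binds actin monomers, and *Fscn1* (0.34), which encodes an actin bundling protein, against a median of 0.96 over the genes searched. The 10 genes themselves lay between 0.10 and 0.50 from their mean. *H2ac15* averaged 314 ± 124 units in *Tk2*-/- and 1127 ± 369 units in *Tk2*+/+ skeletal muscle, and 149 ± 17.2 units in *Tk2*-/- and 877 ± 242 units in *Tk2*+/+ heart (SD, n = 3 each). *Mdk* averaged 64.8 ± 4.03 units in *Tk2*-/- and 204 ± 40.3 units in *Tk2*+/+ skeletal muscle, and 43.8 ± 1.70 units in *Tk2*-/- and 265 ± 78.7 units in *Tk2*+/+ heart. Histone genes have near-identical copies that can share probe signal, so these levels are uncertain, and the likeness was chosen on these same arrays and is a description.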

How the data were processed

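Gene expression in 12 samples was measured with Affymetrix Mouse Gene 1.1 ST arrays. The deposited table holds 1 signal intensity per probe set and array on a linear scale, made by the authors with Affymetrix Expression Console and PLIER according to the submitters' processing notes. How arrays were normalized beyond that is not stated in the sources used here, no detection call was used, and the number of arrays limits the precision. Of 35556 probe sets, 21218 carried 1 gene symbol, 1881 several and 12457 none; 21185 matched a RefSeq gene table (GRCm38.p6), and 0 symbols changed. The brightest probe set per symbol gave 18820 genes. All columns were used (0 were not). At most 0.321% of probe sets had identical values on any 2 arrays.

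An offset of 16 was added and log2 taken, which understates changes of dim genes. A single limma model (version 3.58.1, R 4.3.3, functions lmFit and eBayes) held the means of the 4 groups, with 8 degrees of freedom left for the spread. Tests were 2-sided, p-values were adjusted by Benjamini-Hochberg across the 18820 genes, and 0.05 was the threshold. Replicates are separate mice by the labels. The methods name a t-test without details; it was run as an alternative. The fit was tested on simulated data. There were 25 alternatives, 12 of which dropped 1 array each. Named genes were the 10 members, *Tk2*, up to 4 genes per list and tissue with the largest change past the threshold, every paralog, and the 5 genes most like the members; *Xist*, marker genes and a few list members are given as values beside them, chosen after their values were seen. The members, lists and rules were chosen with earlier results of these data known. Python 3.11.15, pandas 2.3.3, NumPy 2.4.6 and matplotlib 3.10.9 were used for summaries and figures.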

Additional observations from a re-analysis of the deposited data

How the results depend on the processing

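The fall of the 10 genes held its direction in 246 of 246 gene and setting combinations in each tissue, and passed the threshold in 237 in skeletal muscle and 245 in heart, all exceptions coming from the methods' t-test. With that test and Benjamini-Hochberg adjustment, 1 gene passed in skeletal muscle (*Aurka*, adjusted p 0.0488 to 0.125 over the 10) and 9 in heart (all but *Aurka*, 0.0734). Of all 18820 genes, 294 passed as lower in skeletal muscle and 8042 in heart. At an unadjusted p under 0.05 and a fold of at least 2, 9 and 10 of the 10 genes were lower, beside 329 and 1770 of all genes. With dim genes left out only 6 of the 10 were tested, and 6 passed in skeletal muscle and 6 in heart.

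For the difference between the tissues, 1 gene (*Ccnb2*) passed with an offset of 1, with dim genes left out and with array weights. Leaving out arrays gave 0 to 1, with 1 without *Tk2*-/- skeletal muscle replicate 1 or 3, *Tk2*+/+ skeletal muscle replicate 1 or *Tk2*+/+ heart replicate 2 or 3. Wild-type skeletal muscle against heart gave 1 gene after median centring and 0 to 2 when arrays were left out, with 1 without *Tk2*+/+ skeletal muscle replicate 1 or heart replicate 2, and 2 without *Tk2*+/+ heart replicate 1. Knockout skeletal muscle against heart gave 1 gene after median centring, upper-quartile scaling, quantile normalization over 12 arrays, a prior with trend and robust estimation, or sex as a covariate, 7 with an offset of 1 or array weights, and 0 to 6 when arrays were left out. The count was 0 without *Tk2*-/- skeletal muscle replicate 2, 6 without *Tk2*+/+ heart replicate 1, and 1 without *Tk2*+/+ skeletal muscle replicate 2 or any *Tk2*-/- heart replicate. These counts pool both directions and were not of the same gene throughout. After median centring the gene was *Mad2l1*, as lower in skeletal muscle. Over 24 alternatives *Mad2l1* was always below 0 and passed in 4, and *Ccnb2* was always above 0 and passed in 19.

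Over all genes, calls in skeletal muscle ranged from 294 to 2736 lower (2050 as reported) and from 366 to 3357 higher (2179). In heart they ranged from 2294 to 9833 lower (9229) and from 217 to 8096 higher (375). The difference between tissues ranged from 867 to 8534 higher (7781) and from 128 to 3948 lower (261), wild-type skeletal muscle against heart from 1999 to 9322 higher (5762) and from 1984 to 4911 lower (3471), and knockout skeletal muscle against heart from 3324 to 12471 higher (11200) and from 688 to 5722 lower (857). The methods' t-test was not run for the difference between tissues. Deviations from the mean of 3 arrays cannot settle whether replicate numbers pair the samples. In skeletal muscle, those of same-numbered knockout and wild-type arrays correlated at -0.03, 0.12 and 0.13, and those of differently numbered arrays at -0.16 to 0.06. In heart same-numbered arrays correlated at -0.19, -0.17 and -0.05, and differently numbered arrays at -0.15 to 0.24. With a replicate block all 10 genes were lower in both tissues, and 1 passed between the knockout tissues.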

Other observations

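A further list held genes of the DREAM and MuvB complexes and of the factor NF-Y. Of 16 listed genes 14 were found among the measured genes, and *Foxm1* and *Rbbp4* were not. The paper names *Foxm1* among proliferation genes down-regulated in both tissues, and the counts given here leave it out. In skeletal muscle 3 rose and 2 fell, with a list median of -0.13, beside 11.6% of all genes higher and 10.9% lower. *Tfdp2*, a dimerization partner of E2F proteins, averaged 1527 ± 374 units in *Tk2*-/- and 438 ± 86.2 units in *Tk2*+/+ skeletal muscle (SD, n = 3 each), a log2 fold change of 1.76 (adjusted p = 4.74e-06). *Rbl2*, which encodes the pocket protein p130 of the DREAM repressor, averaged 708 ± 107 units in *Tk2*-/- and 285 ± 70.6 units in *Tk2*+/+ skeletal muscle (1.28, adjusted p = 3.41e-05), and the MuvB subunit gene *Lin52* averaged 238 ± 9.55 and 121 ± 13.4 units in the same groups (0.90, adjusted p = 2.33e-05). The subunit genes of NF-Y *Nfya* (-0.37, adjusted p = 0.0391) and *Nfyb* (-0.30, adjusted p = 0.0490) fell. After quantile normalization within the tissue 5 were higher and 2 lower, beside 14.5% of all genes each way. *Nfyb* no longer passed (-0.24, adjusted p = 0.0529), *Nfya* was at -0.37 (adjusted p = 0.00412), and *Nfyc* passed as lower (-0.32, adjusted p = 0.00347).

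In heart 1 rose, *Tfdp2* (0.77, adjusted p = 0.00131), and 10 fell (list median -0.60), among them *Rbl1* (-1.20), which encodes the pocket protein p107, *Nfya* (-1.11), *Tfdp1* (adjusted p = 2.23e-05) and *E2f5* (-0.84). Of all genes 1.99% were higher and 49.04% lower. After quantile normalization within each tissue 4 were higher in heart, *Tfdp2* (1.44), *Rbl2* (0.84), *Lin52* (0.50) and *Lin37* (0.30), and 4 were lower, *Rbl1* (-0.81), *Lin9* (-0.46), *Nfya* (-0.44) and *Tfdp1* (-0.31), beside 16.1% of all genes higher and 15.96% lower. On the deposited values *Rbl2* and *Lin52* did not pass in heart (0.13 and -0.15, adjusted p = 0.546 and 0.276).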
